A study of Mus musculus with 49 samples.

Results

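The 10 genes described here are 6 phospholipases A2 (Pla2g2d, Pla2g2e, Pla2g2f, Pla2g4a, Pla2g4d and Pla2g4e), the cyclooxygenases Ptgs1 and Ptgs2, the prostaglandin E synthase Ptges and the prostaglandin-degrading dehydrogenase Hpgd. They were taken by name and Entrez gene ID, not by their values, from 24475 genes counted in skin and colon, and all 10 were present in both tissues. All groups, controls included, came from mice labelled as a DITRA model, named for a human disease in which the natural antagonist of the IL-36 receptor is lacking, on a mixed background of 75% C57BL/6NTac and 25% 129S6/SvEvTac. The labels name no allele, sex, age, dose or time, and no mice without the DITRA alteration are analysed here. In skin there were 7 libraries of imiquimod (IMQ) with an anti-IL-36R antibody raised against the human receptor, 7 of IMQ with an antibody to the p40 subunit of mouse interleukin-12 and interleukin-23 (anti-IL-12p40), 6 of IMQ with PBS, and 3 of water controls with PBS. In colon there were 8 libraries of dextran sulfate sodium (DSS) with anti-IL-36R, 7 of DSS with anti-IL-12p40, 6 of DSS with PBS, and 5 of water controls with PBS. Imiquimod is a Toll-like receptor agonist that inflames skin on contact, and DSS is a sulfated sugar polymer whose intake damages the colonic epithelium.

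Phospholipases A2 cut a fatty acid from the middle position of membrane phospholipids. Where that fatty acid is arachidonate, the cyclooxygenases turn it into prostaglandin H2, terminal synthases such as Ptges turn that into prostaglandin E2, and Hpgd inactivates the product. Pla2g4a encodes cytosolic phospholipase A2 alpha, the enzyme best known for releasing arachidonate in stimulated cells. Its relatives Pla2g4d and Pla2g4e encode the delta and epsilon enzymes, of which the delta form was first described in psoriatic skin and the epsilon form also transfers acyl groups to make N-acyl phosphatidylethanolamines. Pla2g2d, Pla2g2e and Pla2g2f encode small secreted enzymes, known in mice from lymphoid dendritic cells, hair follicles and the upper epidermis in that order. Ptgs1 is the cyclooxygenase made in many resting cells, whereas Ptgs2 is the inducible form.

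The genes lie in 3 clusters and 3 single places on the mouse build GRCm38 (mm10). Pla2g4a (Entrez gene ID 18783, chromosome 1, 149829618 to 149961290) and Ptgs2 (19225, chromosome 1, 150100031 to 150108234) are neighbours with 138740 bases between them. Pla2g4e (329502, chromosome 2, 120166412 to 120245630) and Pla2g4d (78390, chromosome 2, 120265866 to 120289069) are 20235 bases apart. Pla2g2f (26971, chromosome 4, 138750533 to 138757598), Pla2g2d (18782, chromosome 4, 138775735 to 138782052) and Pla2g2e (26970, chromosome 4, 138877911 to 138882817) share the cluster of secreted enzymes. Ptgs1 (19224, chromosome 2, 36216742 to 36258593), Ptges (64292, chromosome 2, 30889471 to 30931020) and Hpgd (15446, chromosome 8, 56294552 to 56321046) lie apart from these.

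The promoters of 4 members are shown because these genes made up the pairs that moved in opposite directions, Ptgs2 against Hpgd in colon and Pla2g4d against Pla2g2e in skin. Each sequence is from RefSeq on GRCm38.p6 and runs 5′ to 3′ on the gene's own strand. It covers 250 bases before to 50 bases after the start listed for that promoter. For Pla2g2e that listed start lies downstream of the first base of the gene span given above. Capitals mark matches, on either strand, to the letters of AP-1 (TGANTCA), C/EBP (TTNNGNAA), NF-kB, STAT (TTCNNNGAA), the cyclic AMP element core (TGACG), the E box (CACGTG) or the TATA box (TATAAA).
Ptgs2, chr1:150099781-150100080, plus strand: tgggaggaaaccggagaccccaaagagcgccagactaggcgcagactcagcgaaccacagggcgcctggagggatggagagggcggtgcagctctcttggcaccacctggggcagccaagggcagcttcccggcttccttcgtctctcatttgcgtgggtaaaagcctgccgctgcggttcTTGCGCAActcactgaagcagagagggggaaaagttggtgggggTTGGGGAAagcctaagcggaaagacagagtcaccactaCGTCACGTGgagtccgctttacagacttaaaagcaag
Hpgd, chr8:56294302-56294601, plus strand: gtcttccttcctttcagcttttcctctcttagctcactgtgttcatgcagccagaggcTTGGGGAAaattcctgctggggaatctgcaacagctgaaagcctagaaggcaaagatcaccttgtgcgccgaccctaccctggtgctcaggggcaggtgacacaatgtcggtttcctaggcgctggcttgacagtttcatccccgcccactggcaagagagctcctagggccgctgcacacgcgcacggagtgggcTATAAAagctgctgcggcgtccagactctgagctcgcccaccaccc
Pla2g4d, chr2:120289020-120289319, minus strand: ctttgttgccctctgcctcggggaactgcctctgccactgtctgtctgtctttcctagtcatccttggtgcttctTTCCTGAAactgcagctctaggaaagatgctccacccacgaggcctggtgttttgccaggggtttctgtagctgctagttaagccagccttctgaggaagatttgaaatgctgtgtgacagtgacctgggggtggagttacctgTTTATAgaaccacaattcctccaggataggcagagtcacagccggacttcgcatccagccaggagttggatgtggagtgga
Pla2g2e, chr4:138877692-138877991, plus strand: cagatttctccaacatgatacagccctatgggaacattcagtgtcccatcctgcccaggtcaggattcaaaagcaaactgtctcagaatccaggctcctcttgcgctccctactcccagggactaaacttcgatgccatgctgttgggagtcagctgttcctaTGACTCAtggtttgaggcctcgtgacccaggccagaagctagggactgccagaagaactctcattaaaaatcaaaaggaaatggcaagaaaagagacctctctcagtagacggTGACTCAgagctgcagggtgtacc
Positions of matches are given by their first base, counted from 1 at the listed start and downwards from -1 before it. The Ptgs2 window held C/EBP letters at -69 (TTGCGCAA, which reads the same on both strands) and at -25 (TTGGGGAA). It also held a cyclic AMP element core at 14 on the reverse strand, overlapping an E box at 17. In Hpgd the same C/EBP letters TTGGGGAA began at -192 and a TATA box at 5. In Pla2g4d, C/EBP letters began at -175 and a TATA box at -31, both on the reverse strand, and in Pla2g2e the AP-1 letters TGACTCA occurred at -87 and at 27. Over 32851 promoter windows of the same length, 40.68% held C/EBP letters, 20.81% the cyclic AMP core, 13.62% a TATA box, 8.3% STAT letters, 7.81% AP-1 letters, 7.15% the E box and 1.47% NF-kB letters. These are matches of letters only.

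Sequencing depth ranged from 14.72 M to 19.68 M summed expected counts per skin library, and from 15.08 M to 18.66 M per colon library. Levels are CPM, that is, counts scaled to a common TMM-adjusted library total, changes are log2 fold changes ± SE, and a gene is said to have risen or fallen where edgeR's quasi-likelihood test gave a Benjamini-Hochberg adjusted p under 0.05 over all genes tested. In colon, DSS PBS replicates 5 and 6 stood apart from all other libraries, at 86.8 and 106.7 on the first principal component against 31.1 at most for the rest of that group. Their summed colonocyte marker levels were 916 and 416 CPM, against 1860 to 2680 CPM in DSS PBS replicates 1 to 4. Replicate 6 also held 1560 CPM of stress keratinocyte markers and 629 CPM of platelet markers, against at most 23.4 and 32.4 CPM in the others of its group, and comparisons that use DSS PBS were refitted without both libraries. In skin, sample numbers place IMQ PBS replicates 1 to 3 beside the water controls and replicates 4 to 6 beside anti-IL-36R, while anti-IL-12p40 forms a run of its own, and skin values are also given for each trio of IMQ PBS libraries. Of 8 colonocyte markers 1 passed the filter on low counts in skin, and of 6 sebaceous gland markers 2 passed it in colon. Expected counts of Pla2g2d were not whole in any of the 49 libraries, so its reads are shared with another annotated sequence and its level is uncertain.

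In imiquimod skin with PBS, 5 of the 10 members rose against water controls and 2 fell. In this comparison 33% of all tested genes changed, 15.5% higher and 17.5% lower. These are whole-tissue values, in which fewer cells of a type cannot be told apart from less RNA per cell. The genes that rose were all 3 cytosolic phospholipases, the inducible cyclooxygenase Ptgs2 and the prostaglandin E synthase Ptges. The genes that fell were the secreted phospholipase Pla2g2e and the constitutive cyclooxygenase Ptgs1.

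Pla2g4d, the delta enzyme, changed most among the phospholipases of skin. It had from 59.8 to 117 CPM with a median of 77.3 CPM in the 6 IMQ PBS libraries, against 18.3, 15.8 and 2.65 CPM in the water controls. Every IMQ PBS library lay above every control, and the change was 2.71 ± 0.544 (adjusted p = 0.00117, 2.91 with IMQ PBS replicates 1 to 3 alone and 2.53 with replicates 4 to 6 alone). Pla2g4e, its neighbour on chromosome 2, was more abundant, from 373 to 840 CPM with a median of 471 CPM under IMQ with PBS, against 191, 282 and 73.6 CPM in water controls. The groups did not overlap here either, and Pla2g4e rose by 1.49 ± 0.354 (adjusted p = 0.00352, with 1.75 and 1.22 for the trios). Pla2g4a, the arachidonate-releasing alpha enzyme, had a narrow spread and a small rise. It ranged from 31.7 to 41.3 CPM with a median of 38.6 CPM in IMQ PBS skin, against 27.1, 29 and 27.6 CPM in controls (0.44 ± 0.0897, adjusted p = 0.0013, with 0.42 and 0.48 for the trios).

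Ptgs2, the inducible cyclooxygenase, had the largest fold change of the 10 in skin. It ranged from 7.85 to 47.3 CPM with a median of 16.2 CPM in IMQ PBS libraries, against 0.98, 1.65 and 1.18 CPM in water controls. All 6 IMQ PBS libraries were above the controls, with replicate 5 the highest, and Ptgs2 rose by 3.98 ± 1.02 (adjusted p = 0.00588, with 3.69 and 4.25 for the trios). Pla2g4a, which lies next to Ptgs2 on chromosome 1, rose far less. Ptges, which makes prostaglandin E2 from the product of the cyclooxygenases, ranged from 209 to 437 CPM with a median of 264 CPM under IMQ with PBS, against 130, 173 and 97.9 CPM in controls. These groups did not overlap, and Ptges rose by 1.09 ± 0.272 (adjusted p = 0.0051, with 1.28 and 0.90 for the trios). Ptgs1 ran the other way, from 70.4 to 112 CPM with a median of 72.8 CPM under IMQ with PBS, against 82.2, 152 and 111 CPM in controls. These groups overlapped, and the fall of Ptgs1 (-0.52 ± 0.16, adjusted p = 0.0167) was not called without water replicate 2 (-0.24, adjusted p = 0.256), with IMQ PBS replicates 1 to 3 alone (-0.42, adjusted p = 0.119) or when those groups were fitted alone (-0.52, adjusted p = 0.0803). Counts of Ptgs2 per count of Ptgs1 were 0.11 to 0.644 in IMQ PBS libraries, against 0.0106 to 0.0119 in water controls.

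**Figure D1:**
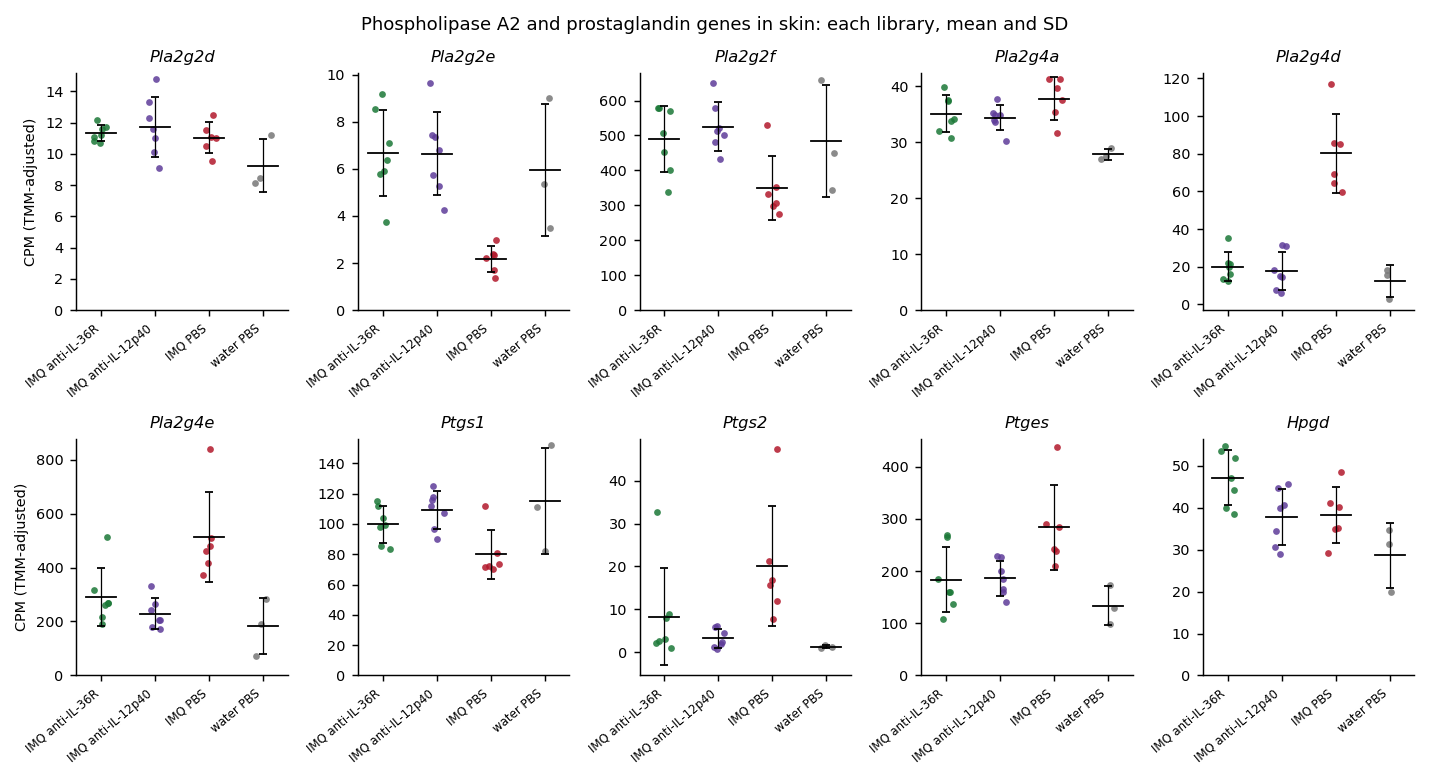
Level of each of the 10 genes in every skin library, in CPM on a linear axis, with horizontal bars for the mean and vertical bars for the SD of each group. Pla2g4d lies at 59.8 CPM or more in all 6 IMQ PBS libraries and at 35.4 CPM or less in all others, whereas Pla2g2e lies at 2.98 CPM or less in IMQ PBS libraries and at 3.49 CPM or more in all others.

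Pla2g2e, the secreted enzyme known from mouse hair follicles, was the member that fell most in skin. Its 6 IMQ PBS libraries held 1.36 to 2.98 CPM with a median of 2.3 CPM, against 3.49, 5.36 and 9.01 CPM in water controls. No library of the groups overlapped, and the change was -1.45 ± 0.292 (adjusted p = 0.00119, with -1.55 and -1.33 for the trios). Pla2g2f, the secreted enzyme of the upper epidermis, spanned 275 to 529 CPM with a median of 320 CPM under IMQ with PBS, against 344, 658 and 449 CPM in controls. Its change of -0.47 ± 0.203 did not pass (adjusted p = 0.0769), but it passed without IMQ PBS replicate 1 (-0.61, adjusted p = 0.0159), without water replicate 1 (-0.66, adjusted p = 0.0307) and with IMQ PBS replicates 4 to 6 alone (-0.67, adjusted p = 0.0308, against -0.27 for replicates 1 to 3). Pla2g2d, the secreted enzyme of lymphoid dendritic cells, held 9.53 to 12.5 CPM under IMQ with PBS, against 8.11, 11.2 and 8.45 CPM in controls (0.26 ± 0.129, adjusted p = 0.126, and 0.44, adjusted p = 0.0207 without water replicate 2). Hpgd, which inactivates prostaglandins, held 29.3 to 48.6 CPM under IMQ with PBS, against 34.6, 31.3 and 20 CPM in controls. Its change of 0.42 ± 0.179 did not pass (adjusted p = 0.0741), but it passed without water replicate 1 (0.58, adjusted p = 0.0443) or IMQ PBS replicate 5 (0.51, adjusted p = 0.0347). The members that did not pass thus had overlapping groups in every case.

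Marker levels of several cell types moved with these members. Beside Pla2g2e, all 6 sebaceous gland markers fell, with summed levels of 38.7 to 207 CPM in IMQ PBS libraries, against 215 to 499 CPM in water controls. Pla2g2e per 1000 CPM of those markers was 14.4 to 45.4 CPM in IMQ PBS libraries, against 16.2 to 19.9 CPM in water controls, and these ranges overlapped. Hair follicle markers, of which 2 of 6 fell, summed to 32.7 to 88.3 CPM in IMQ PBS libraries, against 20.4 to 434 CPM in controls. Beside Ptgs2, 5 of 6 tested neutrophil markers rose, with sums of 8070 to 16700 CPM in IMQ PBS libraries, against 395 to 2680 CPM in controls. Ptgs2 per 1000 CPM of neutrophil markers was 0.777 to 5.86 CPM in IMQ PBS libraries, against 0.366 to 2.99 CPM in controls. Beside Pla2g4d, Pla2g4e and Ptges, all 5 stress keratinocyte markers rose, with sums of 37200 to 55000 CPM in IMQ PBS libraries, against 5000 to 15000 CPM in controls. Per 1000 CPM of those markers, Pla2g4d was 1.21 to 2.25 CPM in IMQ PBS libraries, against 0.53 to 1.32 CPM in controls. Pla2g4e was 7.57 to 15.3 CPM, against 13.7 to 18.8 CPM in controls. Ptges was 4.95 to 7.95 CPM, against 9.35 to 19.6 CPM in controls. In relation to that list the Pla2g4d and Pla2g4e ranges thus overlapped, and every IMQ PBS library lay below every control for Ptges. The cell types named here were not alone. Markers of monocytes and macrophages (5 of 7), endothelium (4 of 5) and basal keratinocytes (3 of 5) also rose. Those of dendritic cells (5 of 7), fibroblasts (4 of 6), suprabasal keratinocytes (3 of 5 tested) and T and B lymphocytes (3 of 5 tested) also fell. The part of all these cell types in the members' changes was not tested.

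Anti-IL-36R in imiquimod skin changed 2 of the 10 members relative to PBS: Pla2g4d fell and Pla2g2e rose. Of all tested genes 4.21% changed in this comparison, 3.29% higher and 0.919% lower. Pla2g4d had 12.3 to 35.4 CPM with a median of 19.9 CPM under anti-IL-36R, against 59.8 to 117 CPM under PBS. The ranges did not meet, and the change was -2.0 ± 0.377 (adjusted p = 0.00474). Pla2g2e had 3.75 to 9.18 CPM with a median of 6.37 CPM under anti-IL-36R, against 1.36 to 2.98 CPM under PBS, again without overlap (1.61 ± 0.245, adjusted p = 0.00181). Against IMQ PBS replicates 4 to 6 alone, the libraries numbered with the antibody group, these values were -1.80 (adjusted p = 0.0853) and 1.5 (adjusted p = 0.0505), and against replicates 1 to 3 they were -2.19 (adjusted p = 0.0351) and 1.72 (adjusted p = 0.0227). With the 3 PBS libraries numbered beside the antibody alone, neither call held, in a fit where far fewer of all tested genes were called.

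The other 8 members did not pass under anti-IL-36R, and 1 library bore on several of them. Ptgs2 was 8.01, 2.55, 8.88, 0.912, 2.99, 2.21 and 32.8 CPM in anti-IL-36R replicates 1 to 7, against 7.85 to 47.3 CPM under PBS. Replicate 7 lay inside the PBS range and well above the other 6. The Ptgs2 change was -1.26 ± 0.612 (adjusted p = 0.238) with that library and -2.24 (adjusted p = 0.0132) without it. Without replicate 7 the changes of Pla2g4e (-0.82 with it, adjusted p = 0.0724; -1.02 without, adjusted p = 0.0143), Ptges (-0.63 with it, adjusted p = 0.0802; -0.74 without, adjusted p = 0.0279) and Pla2g2f (0.49 with it, adjusted p = 0.0897; 0.56 without, adjusted p = 0.0343) also passed. Leaving out IMQ PBS replicate 1 instead gave calls for Pla2g2f (0.63, adjusted p = 0.0181) and Ptgs1 (0.42, adjusted p = 0.0427), and leaving out anti-IL-36R replicate 1 gave one for Ptges (-0.75, adjusted p = 0.0347). Replicate 7 also had the highest neutrophil marker sum of its group, 12600 CPM, against 3210 to 7350 CPM in the other 6, and its part in the result was not tested. Ptgs1 at 0.32 ± 0.129 (adjusted p = 0.16), Hpgd at 0.30 ± 0.138 (adjusted p = 0.209), Pla2g4a at -0.11 ± 0.069 (adjusted p = 0.393) and Pla2g2d at 0.04 ± 0.0997 (adjusted p = 0.854) completed the set.

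Anti-IL-12p40 in imiquimod skin changed 6 of the 10 members relative to PBS, 3 in each direction. Here 8.8% of all tested genes changed, 5.31% higher and 3.49% lower. The fallers were Pla2g4d, Pla2g4e and Ptgs2, each of which had risen under imiquimod, and the risers were Pla2g2e, Pla2g2f and Ptgs1. The imiquimod change and the antibody changes share the IMQ PBS libraries, so opposite signs between them are not independent. Pla2g4d had 5.8 to 31.3 CPM with a median of 15.2 CPM under anti-IL-12p40, against 59.8 to 117 CPM under PBS (-2.19 ± 0.38, adjusted p = 0.00229). Pla2g4e had 171 to 333 CPM with a median of 207 CPM under anti-IL-12p40, against 373 to 840 CPM under PBS (-1.17 ± 0.26, adjusted p = 0.0083). Ptgs2 had 0.752 to 6.1 CPM with a median of 2.4 CPM under anti-IL-12p40, against 7.85 to 47.3 CPM under PBS (-2.61 ± 0.65, adjusted p = 0.0158). None of these 3 ranges met. Pla2g2e had 4.27 to 9.65 CPM with a median of 6.8 CPM under anti-IL-12p40, against 1.36 to 2.98 CPM under PBS, also without overlap (1.61 ± 0.244, adjusted p = 0.00108).

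The rises of Pla2g2f and Ptgs1 under anti-IL-12p40 were smaller, and their ranges overlapped those of PBS. Pla2g2f had 433 to 649 CPM under the antibody, against 275 to 529 CPM under PBS (0.59 ± 0.164, adjusted p = 0.0282). Ptgs1 had 89.8 to 125 CPM under the antibody, against 70.4 to 112 CPM under PBS (0.45 ± 0.129, adjusted p = 0.0331). Leaving out IMQ PBS replicate 2, 3, 4, 5 or 6 or anti-IL-12p40 replicate 1 lost the Pla2g2f call (0.51 to 0.59, adjusted p from 0.0508 to 0.0784). Leaving out any of the same libraries, or anti-IL-12p40 replicate 2, 3 or 5, lost the Ptgs1 call (0.41 to 0.45, adjusted p from 0.051 to 0.0812). With IMQ PBS replicates 1 to 3 or 4 to 6 alone, Pla2g2e was at 1.72 and 1.49, Pla2g4d at -2.38 and -2.0, Pla2g4e at -1.42 and -0.89, Ptgs2 at -2.32 and -2.88, Pla2g2f at 0.39 and 0.79 and Ptgs1 at 0.35 and 0.53, and Pla2g2e and Pla2g4d were called with either trio (adjusted p from 0.0128 to 0.0359). No IMQ PBS library is numbered in the run of anti-IL-12p40, so that run and the antibody cannot be told apart. Ptges at -0.61 ± 0.203 (adjusted p = 0.0637; -0.68, adjusted p = 0.042 without anti-IL-12p40 replicate 7), Pla2g4a at -0.14 ± 0.069 (adjusted p = 0.215), Pla2g2d at 0.09 ± 0.0996 (adjusted p = 0.614) and Hpgd at -0.01 ± 0.138 (adjusted p = 0.964) did not pass.

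Sebaceous gland markers moved with Pla2g2e under both antibodies, all 6 rising in each case, with sums of 222 to 649 CPM under anti-IL-36R and 195 to 557 CPM under anti-IL-12p40, against 38.7 to 207 CPM under PBS. Pla2g2e per 1000 CPM of these markers had medians of 15.2 CPM under anti-IL-36R and 17.3 CPM under anti-IL-12p40, against 27.1 CPM under PBS. The ranges were 13.2 to 26.6 CPM and 14 to 27 CPM, against 14.4 to 45.4 CPM under PBS, and they overlapped. Sebaceous glands were not alone in this. Of 7 dendritic cell markers 3 rose under anti-IL-36R and 4 under anti-IL-12p40, and of 5 tested suprabasal keratinocyte markers 1 and 3 rose. Neutrophil marker sums were 3210 to 12600 CPM under anti-IL-36R and 1010 to 5260 CPM under anti-IL-12p40, against 8070 to 16700 CPM under PBS, and 0 and 3 of 6 tested markers fell. Pla2g4d per 1000 CPM of stress keratinocyte markers was 0.473 to 0.976 CPM under anti-IL-36R and 0.36 to 0.92 CPM under anti-IL-12p40, against 1.21 to 2.25 CPM under PBS. The Pla2g4d ranges under the antibodies did not meet the PBS range. Pla2g4e on the same scale had medians of 11.1 CPM under anti-IL-36R and 7.4 CPM under anti-IL-12p40, against 11.7 CPM under PBS. Ptges had 6.93 and 6.7 CPM, against 6.11 CPM under PBS, and for both genes the ranges of each antibody overlapped those of PBS. What part these cell types had in the antibody effects was not tested.

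Between the antibodies in imiquimod skin, none of the 10 members was called by edgeR, DESeq2 or limma-voom, and 2 had an unadjusted p under 0.05. Of all tested genes 0.0456% were called by edgeR, 0.013% higher and 0.0326% lower under anti-IL-36R. Those 2 members were Ptgs2, at 1.36 ± 0.629 for anti-IL-36R against anti-IL-12p40 (adjusted p = 0.922), and Hpgd, at 0.32 ± 0.132 (adjusted p = 0.826). The estimates for the members that changed under both antibodies were 0.00 ± 0.214 for Pla2g2e and 0.19 ± 0.365 for Pla2g4d. For Pla2g4e the estimate was 0.35 ± 0.25, so differences of the size of these errors were not resolved.

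Compared with water controls, 2 members were higher under anti-IL-36R and 1 under anti-IL-12p40, where 13.1% and 4.8% of all tested genes changed. For anti-IL-36R 5.97% were higher and 7.17% lower, and for anti-IL-12p40 2.41% were higher and 2.39% lower. Pla2g4a rose under both, with 30.8 to 39.9 CPM under anti-IL-36R and 30.3 to 37.8 CPM under anti-IL-12p40, against 27.1 to 29 CPM in water controls. Its changes were 0.33 ± 0.0874 (adjusted p = 0.0159) for anti-IL-36R and 0.30 ± 0.0873 (adjusted p = 0.0477) for anti-IL-12p40. The first was lost without water replicate 1 (0.31, adjusted p = 0.0769) or 3 (0.33, adjusted p = 0.0558). The other was lost without any 1 of the 3 water replicates or of anti-IL-12p40 replicates 1, 3, 5, 6 and 7 (0.28 to 0.34, adjusted p from 0.0554 to 0.158). Hpgd rose under anti-IL-36R, with 38.5 to 54.8 CPM, against 34.6, 31.3 and 20 CPM in water controls (0.72 ± 0.177, adjusted p = 0.0114), a call lost without water replicate 3 (0.52, adjusted p = 0.0843). Calls also appeared for Ptgs2 under anti-IL-36R without its replicate 4 (2.93, adjusted p = 0.0346, against 2.73 ± 0.977, adjusted p = 0.0646 with it), and for Pla2g2d without water replicate 2 under anti-IL-36R (0.47, adjusted p = 0.0346) and anti-IL-12p40 (0.52, adjusted p = 0.0454) or without anti-IL-12p40 replicate 2 (0.40, adjusted p = 0.0411). Pla2g4d and Pla2g2e, which changed under both antibodies relative to PBS, were at 0.71 ± 0.492 and 0.16 ± 0.283 for anti-IL-36R and at 0.52 ± 0.489 and 0.16 ± 0.283 for anti-IL-12p40, and neither passed. With 3 water controls, a p that misses the threshold does not show that levels returned to those of controls.

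**Figure D2:**
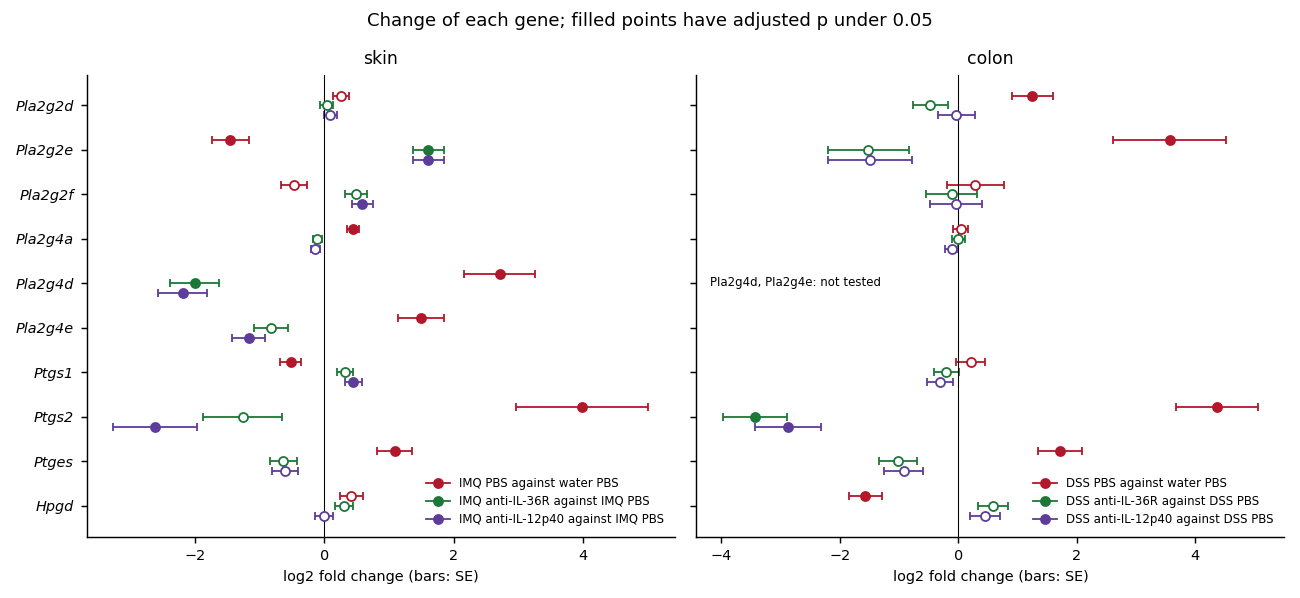
Log2 fold change of each gene (horizontal axis, bars showing the SE) for disease with PBS against water with PBS and for each antibody against PBS, in skin on the left and colon on the right. Filled points passed at an adjusted p under 0.05: in skin 7 members under imiquimod, 2 under anti-IL-36R and 6 under anti-IL-12p40, and in colon 5, 1 and 1 of the 8 tested.

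In DSS colon with PBS, 4 of the 8 members that passed the filter on low counts rose against water controls and 1 fell. In this comparison 32.2% of all tested genes changed, 17.6% higher and 14.7% lower. Ptgs2, Ptges, Pla2g2e and Pla2g2d rose, and Hpgd fell. Pla2g4d and Pla2g4e were not tested in colon, with at most 6 and 22 counts in any of the 26 libraries.

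Ptgs2 was high in every DSS PBS library of colon. DSS PBS replicates 1 to 6 held 102, 83.1, 30.2, 50.6, 561 and 143 CPM, against 7.09, 10.9, 6.67, 10.5 and 3.99 CPM in the 5 water controls. All DSS PBS libraries lay above all controls, the highest being replicate 5, 1 of the libraries that stood apart. Ptgs2 rose by 4.37 ± 0.686 (adjusted p = 3.68e-05), by 3.40 (adjusted p = 4.64e-05) without replicate 5 and by 3.10 (adjusted p = 0.000165) without replicates 5 and 6. Ptges held 23.7, 57.3, 30.3, 30.2, 111 and 86.3 CPM in the same DSS PBS libraries, against 21.6, 22.7, 17.6, 12.1 and 11.4 CPM in controls. The lowest DSS PBS library lay just above the highest control, and Ptges rose by 1.72 ± 0.375 (adjusted p = 0.00113), or 1.05 (adjusted p = 0.0249) without replicates 5 and 6. Ptgs1, the other cyclooxygenase, held 35.2 to 61.6 CPM under DSS with PBS, against 34.3, 38.8, 36.6, 70.9 and 20.6 CPM in controls, and did not pass (0.21 ± 0.241, adjusted p = 0.533). Counts of Ptgs2 per count of Ptgs1 were 0.845 to 9.42 in DSS PBS libraries, against 0.148 to 0.281 in controls.

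Hpgd, the prostaglandin-inactivating dehydrogenase, fell in colon. DSS PBS replicates 1 to 6 held 90.9, 71, 64.9, 80.1, 31.6 and 17.1 CPM, against 166, 130, 173, 233 and 181 CPM in water controls. No library overlapped, replicates 5 and 6 were the lowest, and the change was -1.57 ± 0.276 (adjusted p = 0.00013) or -1.19 (adjusted p = 6.43e-05) without those 2 libraries. Counts of Ptgs2 per count of Hpgd were 0.466 to 17.8 with a median of 1.15 in DSS PBS libraries, against 0.022 to 0.0841 with a median of 0.0428 in controls. The lowest ratio under DSS with PBS was above the highest of the controls. That follows from the 2 genes, neither of which overlapped between these groups, and adds nothing to their separate values. Counts of Ptges per count of Hpgd were 0.261 to 5.05 in DSS PBS libraries, against 0.0519 to 0.175 in controls.

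The secreted phospholipases of colon were low or variable. Pla2g2e held 0.0636, 4.65, 0.601, 1.49, 1.42 and 0.738 CPM in DSS PBS libraries, against 0.0617, 0.113, 0.213, 0 and 0.187 CPM in controls. It rose by 3.57 ± 0.954 (adjusted p = 0.00607), by 2.79 (adjusted p = 0.0211) without DSS PBS replicate 2, which was highest, and by 3.76 (adjusted p = 0.0115) without replicates 5 and 6, while replicate 1 lay within the controls. With controls at 0 to 0.213 CPM, the size of this rise rests on a reference near 0. Pla2g2e passed the filter on low counts through DSS libraries alone. It did not enter a fit of DSS PBS and water libraries alone, so its call could not be tested there. Pla2g2d held 18.9, 2.27, 8.53, 11, 13.9 and 19 CPM in DSS PBS libraries, against 7.03, 6.75, 4.27, 3.46 and 4.24 CPM in controls. Replicate 2 lay below all controls and the other 5 above them, and the rise of 1.25 ± 0.347 (adjusted p = 0.00784) was not called without replicates 5 and 6 (1.0, adjusted p = 0.0626) or with both groups fitted alone (1.27, adjusted p = 0.0682). Pla2g2f held 13 to 92.6 CPM under DSS with PBS, against 37.1, 45.5, 49.7, 2.97 and 56.2 CPM in controls, where replicate 4 was far below the rest (0.29 ± 0.481, adjusted p = 0.684; 0.70, adjusted p = 0.308 without replicates 5 and 6). Pla2g4a held 45.7 to 79.6 CPM under DSS with PBS, against 58.9, 68.4, 62.7, 52.3 and 50.2 CPM in controls, and did not pass (0.04 ± 0.122, adjusted p = 0.855).

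Cell type markers moved with the colon members as well. Beside Hpgd, 2 of 8 colonocyte markers fell, with sums of 416 to 2680 CPM in DSS PBS libraries, against 2830 to 6460 CPM in controls. Hpgd per 1000 CPM of colonocyte markers was 29 to 41.1 CPM in DSS PBS libraries, against 36.1 to 64 CPM in controls, so in relation to these markers the ranges overlapped. Beside Ptgs2, 6 of 7 neutrophil markers rose, with sums of 213 to 3080 CPM in DSS PBS libraries, against 5.37 to 83.3 CPM in controls. Ptgs2 per 1000 CPM of neutrophil markers was 27 to 479 CPM in DSS PBS libraries, against 78.9 to 1960 CPM in controls, and these ranges overlapped. Beside Ptges, all 6 fibroblast markers rose, with sums of 3990 to 13900 CPM in DSS PBS libraries, against 1700 to 2870 CPM in controls. Ptges per 1000 CPM of fibroblast markers was 5.75 to 7.99 CPM in DSS PBS libraries, against 5.9 to 7.91 CPM in controls, with equal medians of 6.71 CPM. Fibroblasts were not alone in this, as 6 of 7 monocyte and macrophage markers and all 5 endothelial markers also rose. Ptges per 1000 CPM of monocyte and macrophage markers was 47.8 to 124 CPM in DSS PBS libraries, against 67.2 to 133 CPM in controls, with medians of 80.1 and 91.7 CPM. Beside Pla2g2d, 4 of 7 dendritic cell markers and all 7 T and B lymphocyte markers rose, and Pla2g2d per 1000 CPM of dendritic cell markers was 155 to 334 CPM in DSS PBS libraries, against 176 to 322 CPM in controls. Per 1000 CPM of the T and B lymphocyte markers Pla2g2d was 39 to 99.6 CPM with a median of 68.7 CPM in DSS PBS libraries, against 81.7 to 168 CPM with a median of 110 CPM in controls. The part of these cell types in the members' changes was not tested beyond these ratios.

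Under anti-IL-36R in DSS colon, Ptgs2 was the only 1 of the 8 tested members that passed against PBS, and it fell. Of all tested genes 6.6% changed, 1.16% higher and 5.45% lower. Ptgs2 held 9.12, 15.9, 11.6, 11.8, 8.1, 27.1, 23.7 and 12.8 CPM in the 8 anti-IL-36R libraries, against 30.2 to 561 CPM under PBS. Every antibody library lay below every PBS library, and the change was -3.43 ± 0.539 (adjusted p = 0.000423), -2.47 (adjusted p = 0.00187) without DSS PBS replicate 5 and -2.17 (adjusted p = 0.0145) without replicates 5 and 6. Ptges held 16 to 45 CPM with a median of 26 CPM under anti-IL-36R, against 23.7 to 111 CPM under PBS, at -1.02 ± 0.317 (adjusted p = 0.0519). That value passed without DSS PBS replicate 1, 3 or 4 or anti-IL-36R replicate 7 or 8 (-1.13 to -1.21, adjusted p from 0.0148 to 0.0442), and was -0.36 (adjusted p = 0.696) without DSS PBS replicates 5 and 6. Hpgd held 68.8 to 106 CPM under anti-IL-36R, against 17.1 to 90.9 CPM under PBS, and did not pass (0.59 ± 0.248, adjusted p = 0.152; 0.19, adjusted p = 0.705 without those 2 libraries). Pla2g2e was at -1.52 ± 0.683 (adjusted p = 0.181), Pla2g2d at -0.47 ± 0.297 (adjusted p = 0.35), and Ptgs1, Pla2g2f and Pla2g4a between -0.20 and 0.

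Under anti-IL-12p40 in DSS colon Ptgs2 also fell relative to PBS, again as the only 1 of the 8 that passed. Of all tested genes 1.15% changed here, 0.0191% higher and 1.13% lower. Ptgs2 held 21.4, 11.6, 13.5, 8.95, 8.33, 41.5 and 49.4 CPM under anti-IL-12p40, against 30.2 to 561 CPM under PBS. Replicates 6 and 7 of the antibody group lay within the PBS range. The fall of -2.87 ± 0.554 (adjusted p = 0.0145) was not called without DSS PBS replicate 5 (-1.90, adjusted p = 0.0743), without replicates 5 and 6 (-1.60, adjusted p = 0.404), by limma-voom (-1.82, adjusted p = 0.353) or with both groups fitted alone (-2.87, adjusted p = 0.321). Ptges at -0.92 ± 0.328 (adjusted p = 0.211), Hpgd at 0.45 ± 0.254 (adjusted p = 0.486; without DSS PBS replicates 5 and 6 -0.25, adjusted p = 0.852 for Ptges and 0.07, adjusted p = 0.939 for Hpgd) and Pla2g2e at -1.49 ± 0.707 (adjusted p = 0.399) did not pass, and Pla2g2d, Pla2g2f, Pla2g4a and Ptgs1 lay between -0.31 and -0.03. Neutrophil markers moved with Ptgs2 under both antibodies, with sums of 89.2 to 263 CPM under anti-IL-36R and 57.9 to 355 CPM under anti-IL-12p40, against 213 to 3080 CPM under PBS, and 6 and 5 of 7 markers fell. Ptgs2 per 1000 CPM of neutrophil markers had medians of 87.5 CPM under anti-IL-36R and 118 CPM under anti-IL-12p40, against 88.4 CPM under PBS. The ranges were wide, at 58.3 to 228 CPM and 37.4 to 233 CPM, against 27 to 479 CPM under PBS. The part of neutrophils in the fall of Ptgs2 was not tested.

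**Figure D3:**
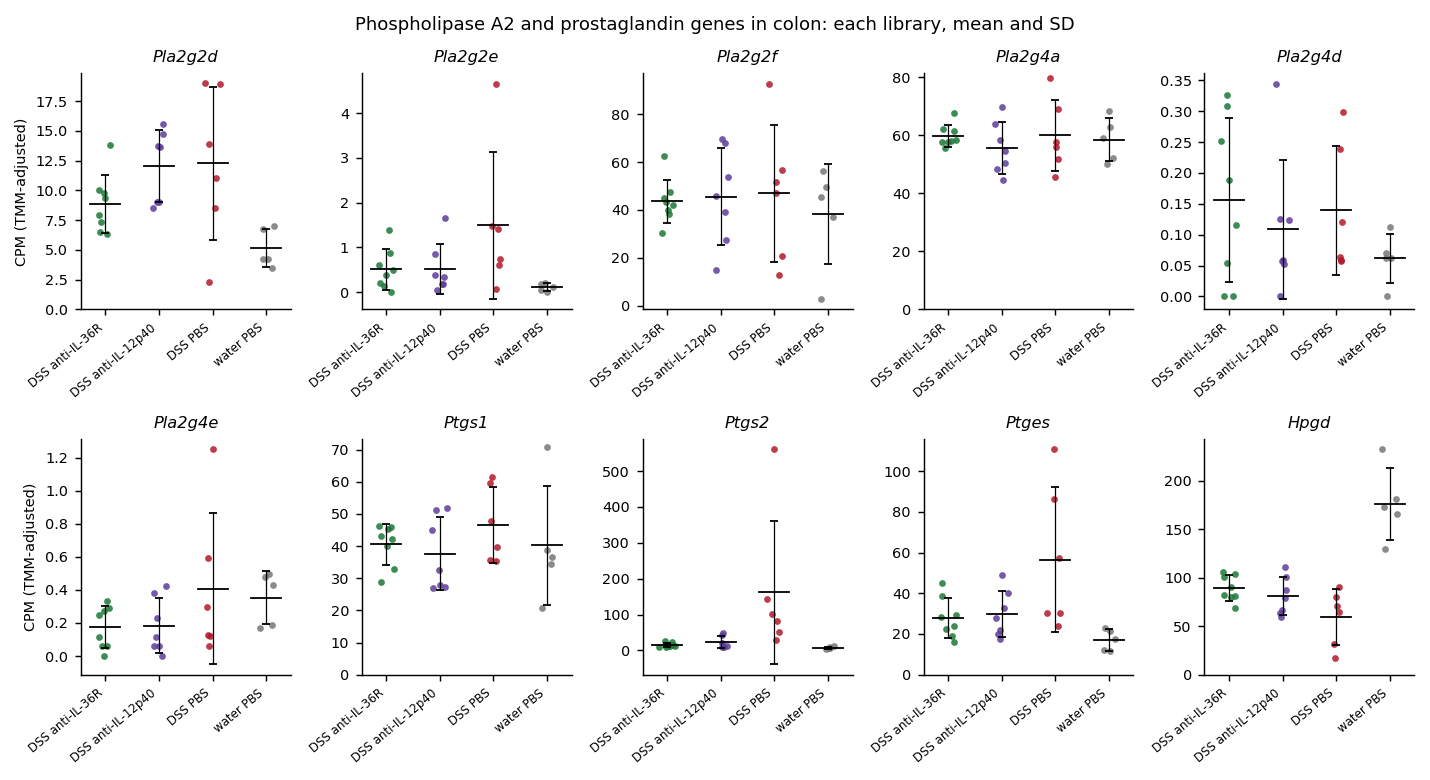
Level of each of the 10 genes in every colon library, in CPM on a linear axis, with horizontal bars for the mean and vertical bars for the SD of each group. Ptgs2 lies at 30.2 CPM or more in all 6 DSS PBS libraries and at 27.1 CPM or less in all 8 anti-IL-36R libraries, and Hpgd lies at 130 CPM or more in all 5 water controls and at 111 CPM or less in every DSS library.

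Between the antibodies in DSS colon none of the 8 tested members was called, by edgeR, DESeq2 or limma-voom, and 0 had an unadjusted p under 0.05. Of all tested genes 0% were called by each of these tools, and 552 had an unadjusted p under 0.05 in edgeR. The estimate for Ptgs2 was -0.56 ± 0.5 and that for Hpgd 0.13 ± 0.235 for anti-IL-36R against anti-IL-12p40.

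Against water controls, Hpgd stayed lower in colon under both antibodies, where 9.92% of all tested genes changed under anti-IL-36R (6.92% higher, 3.01% lower) and 17.2% under anti-IL-12p40 (10.8% higher, 6.4% lower). Hpgd held 68.8 to 106 CPM with a median of 86.2 CPM under anti-IL-36R and 59.5 to 111 CPM with a median of 78.9 CPM under anti-IL-12p40, against 130 to 233 CPM with a median of 173 CPM in water controls. Neither antibody group overlapped the controls, and the changes were -0.99 ± 0.253 (adjusted p = 0.0146) for anti-IL-36R and -1.12 ± 0.262 (adjusted p = 0.00413) for anti-IL-12p40. Pla2g2d rose under anti-IL-12p40, with 8.55 to 15.6 CPM, against 3.46 to 7.03 CPM in controls (1.22 ± 0.338, adjusted p = 0.0139), and was at 0.78 ± 0.328 (adjusted p = 0.136) under anti-IL-36R. Ptgs2 did not pass against water, at 0.94 ± 0.581 (adjusted p = 0.33) for anti-IL-36R and 1.5 ± 0.6 (adjusted p = 0.087) for anti-IL-12p40. Counts of Ptgs2 per count of Hpgd had medians of 0.135 under anti-IL-36R and 0.134 under anti-IL-12p40, against 1.15 in DSS PBS libraries and 0.0428 in water controls. By range, anti-IL-36R (0.0766 to 0.345) and anti-IL-12p40 (0.0748 to 0.773) both overlapped water controls (0.022 to 0.0841). The anti-IL-12p40 range also overlapped that of DSS PBS libraries (0.466 to 17.8).

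Whether skin and colon differed was tested as an interaction in 1 fit of both tissues. Pla2g4d and Pla2g4e entered that fit through their skin counts alone, and no difference is read for them. The disease effect differed for 3 of the other 8 members, where 22.3% of all tested genes differed, 8.95% higher and 13.4% lower in this difference. For Pla2g2e the skin change minus the colon change was -4.97 ± 0.951 (adjusted p = 0.000183, with -5.17, adjusted p = 0.0003 without DSS PBS replicates 5 and 6, and -4.25, adjusted p = 0.00047 without replicate 2), since it fell in imiquimod skin and rose in DSS colon. Pla2g2e held 0 to 0.213 CPM in water control colon, so the size of its difference rests on a reference near 0. For Hpgd the difference was 2.03 ± 0.372 (adjusted p = 0.000103, and 1.65, adjusted p = 3.3e-05 without DSS PBS replicates 5 and 6), with a fall in colon and a change that did not pass in skin. For Pla2g4a it was 0.45 ± 0.161 (adjusted p = 0.037), a call lost without any 1 of 13 libraries (0.35 to 0.48, adjusted p from 0.0513 to 0.114). Ptgs2 at -0.32 ± 1.16 and Ptges at -0.58 ± 0.469 did not pass (adjusted p = 0.885 and 0.394), and without DSS PBS replicates 5 and 6 they were at 0.92 (adjusted p = 0.622) and 0.07 (adjusted p = 0.953). Ptgs1 passed without IMQ PBS replicate 1 (-0.87, adjusted p = 0.0417) or water colon replicate 4 (-1.01, adjusted p = 0.00858), and Pla2g2d without DSS PBS replicate 2 (-1.23, adjusted p = 0.00256).

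The antibody effects differed between the tissues for Pla2g2e and for none of the other 7 members tested in colon, where 5.14% of all tested genes differed for anti-IL-36R (4.13% higher, 1.01% lower) and 1.87% for anti-IL-12p40 (1.47% higher, 0.398% lower). Pla2g2e was low in DSS colon, at 0.0636 to 4.65 CPM under PBS, 0 to 1.39 CPM under anti-IL-36R and 0.0581 to 1.65 CPM under anti-IL-12p40. The size of its differences between tissues thus rests on low colon levels. The skin change minus the colon change of Pla2g2e was 3.10 ± 0.717 (adjusted p = 0.00738) for anti-IL-36R and 3.08 ± 0.73 (adjusted p = 0.0162) for anti-IL-12p40. Without DSS PBS replicate 2 these were 2.36 (adjusted p = 0.0248) and 2.31 (adjusted p = 0.057), so the anti-IL-12p40 call was lost, and without DSS anti-IL-12p40 replicate 7 the anti-IL-12p40 value was 3.72 (adjusted p = 0.00458). For Ptgs2 the differences of 2.12 ± 0.82 (adjusted p = 0.126) and 0.22 ± 0.853 (adjusted p = 0.957) did not pass, and without DSS PBS replicates 5 and 6 they were 0.88 (adjusted p = 0.74) and -1.03 (adjusted p = 0.761). Those of Pla2g2e were then 3.30 (adjusted p = 0.0166) and 3.28 (adjusted p = 0.0258). A fall of Ptgs2 was called under anti-IL-36R in colon but not in skin, and these values do not show that the effects differ.

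Levels per length, in mean CPM per kilobase of exon, placed the members in a different order in each tissue. In IMQ PBS skin Pla2g2f was highest at 142, followed by Pla2g4e at 73.8 and Ptges at 72.2, whose ranges of 53.6 to 121 and 53.2 to 111 overlapped almost wholly. Hpgd at 22.7, Pla2g4d at 21.8 and Ptgs1 at 20.6 came next with overlapping ranges, then Pla2g4a at 5.92, Pla2g2d at 4.91, Ptgs2 at 4.39 and Pla2g2e at 2.36. In water control skin Pla2g2f again led at 196, Pla2g4d stood at 3.32 and Ptgs2 was last at 0.277. In DSS PBS colon Ptgs2 was at 35.3 (6.59 to 122) and Hpgd at 35.2 (10.2 to 54), but without replicate 5 Hpgd led at 38.5, followed by Pla2g2f at 21.2 and Ptgs2 at 17.9. With all 6 libraries the next were Pla2g2f at 19, Ptges at 14.4, Ptgs1 at 12 and Pla2g4a at 9.39. In water control colon Hpgd led at 105, 7 of the 10 levels lay under 10, and Ptgs2 stood at 1.71. Pla2g4d and Pla2g4e stayed under 0.1 in colon in every group mean.

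**Figure D4:**
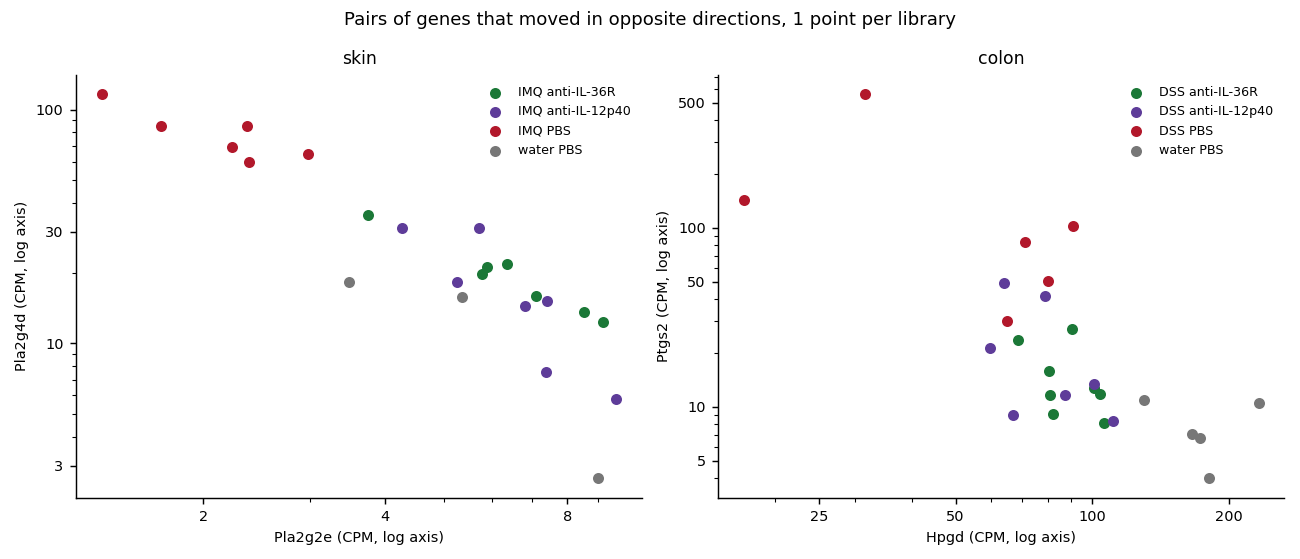
Level of Pla2g4d against Pla2g2e in the 23 skin libraries (left) and of Ptgs2 against Hpgd in the 26 colon libraries (right), in CPM on log axes, 1 point per library coloured by group. IMQ PBS libraries have 21.7 or more counts of Pla2g4d per count of Pla2g2e and all other skin libraries 9.43 or fewer, and DSS PBS libraries have 0.466 to 17.8 counts of Ptgs2 per count of Hpgd. Both pairs were picked for their opposite changes in these data, so these ratios add nothing to the values of the single genes.

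Some pairs of members were alike or opposed in pattern. Values are Pearson's r of log2 CPM over libraries that share groups, cell makeup and depth. Over the 23 skin libraries Pla2g4d and Pla2g4e, the chromosome 2 neighbours, had r = 0.91, Pla2g4e and Ptges 0.89, and Pla2g2f and Ptgs1 0.89. Pla2g2e ran against Pla2g4d at r = -0.9, with 21.7 to 86.5 counts of Pla2g4d per count of Pla2g2e in IMQ PBS libraries, against 0.294 to 5.25 in water controls. Under anti-IL-36R that ratio was 1.34 to 9.43 and under anti-IL-12p40 0.601 to 7.3. Neither gene overlapped between IMQ PBS libraries and the other skin libraries, so the ratio adds nothing to their separate values. Over the 26 colon libraries Ptgs2 and Ptges had r = 0.8, Ptges and Hpgd -0.82 and Ptgs2 and Hpgd -0.75.

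The genes most like each member over the same libraries differed by member and tissue. In skin, Ptgs2 was most like Cxcl3 (r = 0.946), a neutrophil chemokine, Il1b (0.923), the inflammatory cytokine, and Acod1 (0.921). In colon it was again most like Cxcl3 (0.929), followed by Il6 (0.927) and Olr1 (0.918). Pla2g4d was most like Sprr2f (0.96), a small proline-rich protein of the cornified envelope, and the late cornified envelope genes Lce3b (0.954) and Lce3a (0.953). Pla2g2e in skin was most like Rarres1 (0.939), Pctp (0.935) and Scd3 (0.934), a fatty acid desaturase of sebaceous glands. Pla2g4e was most like Klk9 and Tmem125 (both 0.969), Ptges like Ripk4 and Ppard (both 0.959), and Pla2g2f like Serpinb8 (0.962). In colon Hpgd was most like Hadh (0.952), an enzyme of fatty acid oxidation, and Sult1d1 (0.949), Ptges like Mmp19 (0.955), Pla2g2d like Kmo (0.933), and Pla2g2f like B3gnt5 (0.934) and Sval1 (0.933). For Pla2g2d, Pla2g4a and Hpgd in skin the highest r was 0.738, 0.868 and 0.792.

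Other genes of the pathway were counted on 3 lists, and their counts stand beside changes in 33% of all tested genes in IMQ PBS skin and 32.2% in DSS PBS colon. Of 11 other phospholipases A2 tested in skin, 4 rose and 3 fell in IMQ PBS skin against water controls, with a median change of 0.23, against -0.03 over all tested genes. Pla2g4b (0.99 ± 0.378, adjusted p = 0.0485) and Pla2g4f (0.57 ± 0.217, adjusted p = 0.0489), which lie on chromosome 2 on either side of Pla2g4e and Pla2g4d, were among those that rose. Pla2g5, a secreted enzyme that lies between Pla2g2d and Pla2g2e on chromosome 4, fell to 0.854 ± 0.258 CPM (SD, n = 6) in IMQ PBS skin, against 4.56 ± 2.99 CPM (SD, n = 3) in water controls (-2.41 ± 0.499, adjusted p = 0.00146). It rose under anti-IL-36R (2.10 ± 0.433, adjusted p = 0.00803) and anti-IL-12p40 (1.62 ± 0.433, adjusted p = 0.0235) relative to PBS, as Pla2g2e did. Pla2g7, which degrades platelet-activating factor, rose by 1.15 ± 0.249 (adjusted p = 0.00194) in IMQ PBS skin and by 2.12 ± 0.352 (adjusted p = 7.04e-05) in DSS PBS colon. Of 15 tested in colon 4 rose and 0 fell, with a median of 0.09, against -0.03 over all genes. The largest was Pla2g2a, a secreted enzyme whose gene carries a disrupting mutation in C57BL/6 mice, at 43.2 ± 60.2 CPM (SD, n = 6) in DSS PBS colon, against 2.62 ± 1.97 CPM (SD, n = 5) in controls (4.04 ± 0.841, adjusted p = 0.000776). Without DSS PBS replicates 5 and 6, where 18.9% of all tested genes changed, 3 of the 15 rose and 0 fell, Pla2g2a by 4.50 (adjusted p = 0.00023) and Pla2g7 by 1.53 (adjusted p = 0.00115).

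Among prostanoid synthases and reductases, 4 of 10 tested rose and 1 fell in IMQ PBS skin, with a median of 0.20. Akr1b8 (1.42 ± 0.275, adjusted p = 0.00095), an aldo-keto reductase, and Hpgds (1.13 ± 0.232, adjusted p = 0.00137), a prostaglandin D synthase, rose, and Ptgds (-1.57 ± 0.435, adjusted p = 0.00965), another prostaglandin D synthase, fell. In DSS PBS colon 0 of 9 rose and 3 fell, with a median of -0.05, among them Cbr1 (-0.91 ± 0.282, adjusted p = 0.0163), a carbonyl reductase that acts on prostaglandins. Among prostanoid receptors and transporters, 0 of 10 rose and 5 fell in IMQ PBS skin, with a median of -0.28. The prostaglandin D receptor Ptgdr (-1.67 ± 0.33, adjusted p = 0.00108), the thromboxane receptor Tbxa2r (-1.02 ± 0.343, adjusted p = 0.0267) and the prostaglandin E receptors Ptger3 (-0.86 ± 0.264, adjusted p = 0.0171) and Ptger4 (-0.59 ± 0.188, adjusted p = 0.0202) were among them. In DSS PBS colon 3 of 10 rose and 0 fell, with a median of 0.47: Ptgdr (4.55 ± 1.1, adjusted p = 0.00287), the prostacyclin receptor Ptgir (1.28 ± 0.331, adjusted p = 0.00483) and the exporter Abcc4 (0.50 ± 0.12, adjusted p = 0.0027). Ptgdr held 0.191 to 4.97 CPM in DSS PBS colon, against 0 to 0.281 CPM in controls, so the size of its change rests on a reference near 0. Without DSS PBS replicates 5 and 6, 1 of the 9 synthases and reductases fell and 1 of the 10 receptors and transporters, Abcc4, rose (0.35, adjusted p = 0.037). The calls of Cbr1 (-0.57, adjusted p = 0.089), Ptgdr (2.50, adjusted p = 0.0918) and Ptgir (0.69, adjusted p = 0.0999) were then lost. Counts of Akr1b8, Hpgds and Cbr1 were not whole in any library, nor those of Pla2g4b in any skin library and of Ptgdr in most libraries, so their reads are shared with other annotated sequences. Pla2g2a lies within the span of Pla2g5, and the counting strand is not given in the sources used here.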

How the data were processed

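Skin and colon RNA was measured in 23 and 26 libraries, prepared with a strand-specific kit per the labels' protocols. The authors deposited expected counts per gene, made with RSEM on mm10 per the submitters' processing notes, and versions, gene annotation and counting strand are not given in the sources used here. Of these values 16.47% in skin and 17.15% in colon were not whole (tolerance 0.001), and all were rounded to whole numbers. A symbol was found for 24375 of the 24475 gene IDs. Groups follow the labels. The labels do not say that libraries of a group came from separate animals, so p-values measure only the spread between these samples, which may be technical.

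Each tissue was fitted with all its 4 groups by edgeR 4.0.16 (R 4.3.3), with the quasi-likelihood test after filterByExpr and TMM normalization, whose factors spanned 0.833 to 1.08 for skin libraries and 0.91 to 1.09 for colon libraries. Benjamini-Hochberg adjustment covered 15345 genes in skin, 15731 in colon and 16818 in a fit of both tissues for differences between them. These fits had common biological coefficients of variation of 0.201, 0.29 and 0.26. The SE is the size of the log2 fold change divided by the root of F. CPM used TMM-adjusted totals, and log2 CPM a prior count of 2. The code was tested on simulated data. Figures used matplotlib 3.10.9.

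Alternatives were DESeq2 size factors, no filter, DESeq2 1.42.0, limma-voom 3.58.1 with sample weights, the compared groups alone, IMQ PBS replicates 1 to 3 or 4 to 6 alone, and each library left out. Leaving out DSS PBS replicates 5 and 6, or replicate 5 for levels per length, was chosen after seeing the data. The members, gene lists and marker lists were chosen with earlier results of these data known. Named genes are the 10 members, up to 4 genes per pathway list and comparison with the largest change past the threshold, and the 3 genes most like each member, from which examples are given.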

Additional observations from a re-analysis of the deposited data

Results flagged for a closer look

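A library far from the rest of its group was found in 11 of 70 gene and group combinations by Dixon's test. Chance flags about 1 in 20 where values are independent and normally distributed. Here CPM on a linear scale was tested, the combinations share libraries, and all 11 flags were for the highest library. That rate therefore cannot be used to judge the 11. IMQ PBS replicate 1 was the highest of its group for Pla2g2f at 529 CPM, Pla2g4e at 840 CPM, Ptgs1 at 112 CPM and Ptges at 437 CPM. IMQ PBS replicate 5 was the highest for Ptgs2 at 47.3 CPM. IMQ anti-IL-36R replicate 7 was the highest for Pla2g4d at 35.4 CPM, Pla2g4e at 514 CPM and Ptgs2 at 32.8 CPM. In colon, DSS anti-IL-12p40 replicate 4 stood out for Pla2g4d at 0.344 CPM, DSS PBS replicate 2 for Pla2g2e at 4.65 CPM and DSS PBS replicate 5 for Ptgs2 at 561 CPM.

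Differences between skin and colon were found by edgeR's interaction test, as skin change minus colon change on the log2 scale. For the disease effect they were -4.97 for Pla2g2e, 0.45 for Pla2g4a and 2.03 for Hpgd. For Pla2g2e they were 3.10 under anti-IL-36R and 3.08 under anti-IL-12p40. The Pla2g2e values rest on low colon levels, at 0 to 0.213 CPM in water controls.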

How the results depend on the processing

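No paired analysis was possible because the labels give the groups no shared replicate numbers. Of the alternatives listed at the start, 2657 values kept their side of the threshold, 41 passed only under the alternative and 62 passed only in the fit as reported. For leaving out DSS PBS replicates 5 and 6, an alternative added after seeing the data, these were 51, 1 and 2. Members without a value in a fit were left out of these counts. No value past the threshold in either fit changed sign, but 114 and 10 values that passed in neither did.

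Counts of members called that moved by over 1.5 times were as follows, others moved by less, and the cause was not tested. For IMQ anti-IL-36R against IMQ PBS, 2 members were called (4.21% of all tested genes), 4 by DESeq2 (7.25%), 7 by limma-voom (17.9%) and 0 with IMQ PBS replicates 4 to 6 alone (0.34%). For IMQ anti-IL-12p40 against IMQ PBS, 6 were called (8.8%) and 3 with IMQ PBS replicates 1 to 3 (2.85%) or 4 to 6 alone (1.5%). Against water skin, 2 were called for anti-IL-36R and 1 by limma-voom or with the groups alone, and 1 for anti-IL-12p40 and 0 with no filter, by limma-voom or with the groups alone. For DSS PBS against water 5 were called (32.2%), and 3 with the groups alone (19.4%). In that fit Pla2g2d missed the threshold (adjusted p = 0.0682 in edgeR), and Pla2g2e had no value because it did not enter the fit. For DSS anti-IL-36R against DSS PBS 1 was called, and 2 by DESeq2. For DSS anti-IL-12p40 against DSS PBS 1 was called, and 0 by limma-voom, with the groups alone or without DSS PBS replicates 5 and 6, where 0% of all tested genes were called. For DSS anti-IL-36R against water 1 was called, and 2 with the groups alone. For the anti-IL-12p40 difference between tissues 1 was called, and 0 by limma-voom. Counts printed here without a percentage do not show whether the members moved more than genes in general.

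Leaving out 1 library at a time gave 7 to 9 calls for IMQ PBS against water, 2 to 6 for anti-IL-36R and 4 to 7 for anti-IL-12p40 against IMQ PBS, 0 to 0 between the antibodies in each tissue, and 0 to 3 and 0 to 2 for the antibodies against water skin. In colon it gave 5 to 5 for DSS PBS against water, 1 to 2 and 0 to 1 for anti-IL-36R and anti-IL-12p40 against DSS PBS, and 1 to 1 and 2 to 2 for them against water. The differences between tissues gave 2 to 4 for disease, 1 to 1 for anti-IL-36R and 0 to 1 for anti-IL-12p40. The share of all genes called in the same fits is not set beside these counts. They therefore do not show whether the members moved more than genes in general. With 3 water skin libraries, and with Pla2g4d and Pla2g4e near 0 in colon, small changes of these genes were not detectable at this depth.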
